A study of Mus musculus with 15 samples.

Results

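Microglia are the resident macrophages of the retina, and 10 genes that mark them and the macrophages derived from blood were followed through an optic nerve crush (ONC) and acupuncture experiment in mice. The 10 genes were taken by symbol from a table of 54532 genes, and each symbol gave 1 row. They fall into 5 homeostatic genes (Aif1, Csf1r, Cx3cr1, P2ry12, Tmem119) and 5 activation genes (Cd68, Lgals3, Trem2, Tyrobp, Spp1). RNA from whole retina of C57BL/6 mice of wild-type genotype, labelled as 5 weeks old, was sequenced in 15 libraries, 3 in each of 5 groups. ONC-F retinas came from mice with a crushed nerve and needling at acupoint GB20, ONC-J retinas from crushed mice needled at BL1, ONC-S retinas from crushed mice needled at GV16, which served as the sham point for GB20, and ONC retinas from crushed mice without needling. WT retinas came from naïve mice with intact nerves. Retinas of the crushed mice were taken 2 days after the injury. The methods do not make clear whether a library holds 1 mouse or several, so n counts libraries, and p-values measure the spread between libraries. They also speak of 4 groups where the labels give 5, and whether the ONC-S libraries were made together with the rest is not given in the sources used here, so sham needling and such a batch cannot be told apart.

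Microglia need signalling through the receptor encoded by Csf1r to survive, are held in a surveying state by the fractalkine receptor Cx3cr1, and extend their processes towards injured cells through the nucleotide receptor P2ry12. Tmem119 is a membrane protein used as a microglial marker, and Aif1 encodes the actin-binding protein IBA1, the usual immunostaining marker of these cells. After neuronal injury they commonly lower the homeostatic genes and raise genes of phagocytosis and lysosomes: Cd68 (a lysosomal membrane protein), Lgals3 (galectin-3, a sugar-binding protein), Trem2 (a lipid receptor), Tyrobp (the signalling adaptor of TREM2, also called DAP12) and Spp1 (osteopontin, a secreted integrin and CD44 ligand). Spp1 is not specific to these cells in the retina, since alpha retinal ganglion cells (RGCs) also make it, and Lgals3 is also made by reactive glia and other macrophages.

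All 10 genes were detected in every library, at low levels beside the retinal neurons. Library totals ran from 14482435 to 26112762 counts. Over the 15 libraries the summed counts were 6313 for Spp1, 3793 for Csf1r, 1279 for Cx3cr1, 1241 for Cd68, 926 for Lgals3, 736 for P2ry12, 655 for Tmem119, 600 for Trem2, 598 for Tyrobp and 197 for Aif1. Aif1 rested on 3 to 21 counts in a library, with an exact 95% Poisson interval of 0.619 to 8.77 at 3 counts, which covers counting error only. The tissue label was borne out by rod genes, whose group means reached 4650 to 4950 FPKM (reads scaled to gene length and library depth). The injury was visible in the ganglion cell genes, of which 5 of 6 were lower in each crushed group than in WT at an adjusted p under 0.05. Beside them, 2.01% of all genes passed in either direction in ONC-F, 3.61% in ONC-J, 23.3% in ONC-S and 2.11% in ONC. The other gene, Slc17a6, did not pass, with a log2 fold change of 0.14 in ONC against WT (adjusted p = 0.345). Sncg, a ganglion cell synuclein, was lower by a log2 fold change of -1.43 in ONC against WT (adjusted p = 3.01e-07). The ONC replicate 2 library stood apart from the other crushed libraries in several of the 10 genes and in some glial and blood cell markers. Results that rest on it are given with and without it. WT replicate 1 carried lens RNA, with Cryaa, a lens crystallin, at 1310 CPM (counts scaled to library size), against 2.54 and 0.738 CPM in the other WT libraries. It also had the highest summed level of 4 red cell genes, 59.4 CPM, against 11.4 and 8.12 CPM in the other WT libraries. That sum was 16.1 to 23.1 CPM in ONC-S, above 9.55 to 11 in ONC-F, 7 to 10.9 in ONC-J and 6.25 to 12.4 in ONC, and its part in the results for ONC-S was not tested.

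The upstream sequences of 3 of the genes are shown because they stand for the outcomes described next. Spp1 and Cd68 were above all WT libraries in every crushed library, and P2ry12 was above the highest WT library in none. Each sequence is the 250 bases before a RefSeq transcription start (build GRCm38.p6), read 5′ to 3′ on the gene's strand. Capitals mark GAGGAA, the core letters of the PU box bound by the myeloid transcription factor PU.1, searched on both strands.
Spp1 (chr5:104434861-104435110, + strand): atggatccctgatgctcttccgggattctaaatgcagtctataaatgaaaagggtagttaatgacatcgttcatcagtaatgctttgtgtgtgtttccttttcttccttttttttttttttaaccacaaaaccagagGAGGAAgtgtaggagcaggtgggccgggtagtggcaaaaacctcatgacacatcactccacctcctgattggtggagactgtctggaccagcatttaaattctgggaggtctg
Cd68 (chr11:69666171-69666420, − strand): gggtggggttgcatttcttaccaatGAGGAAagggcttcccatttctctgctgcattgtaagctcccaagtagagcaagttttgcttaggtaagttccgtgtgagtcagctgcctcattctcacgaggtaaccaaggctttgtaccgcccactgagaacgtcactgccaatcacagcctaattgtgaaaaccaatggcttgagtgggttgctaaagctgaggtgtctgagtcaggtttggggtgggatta
P2ry12 (chr3:59262986-59263235, − strand): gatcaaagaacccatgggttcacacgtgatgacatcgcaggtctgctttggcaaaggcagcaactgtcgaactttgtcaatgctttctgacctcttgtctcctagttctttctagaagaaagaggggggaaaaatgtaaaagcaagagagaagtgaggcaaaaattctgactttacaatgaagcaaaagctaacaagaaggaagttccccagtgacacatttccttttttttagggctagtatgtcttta
Windows were at hand for 7 of the 10 genes, 8 windows in all, and 4 of the 8 held the motif (1 each for Aif1, Cd68, Spp1 and Trem2, with none in the second Spp1 window), against 23.3% of 32851 mouse windows of the same length. A match is a description of the letters and not a binding site. The bases that follow the RefSeq start of P2ry12 were not found in the GENCODE transcripts of that gene, unlike those of the other windows, so its window may not lie next to the start used for counting.

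Cd68 and Spp1 were the activation genes that rose in all 4 crushed groups. Values are CPM scaled by the trimmed mean of M-values (TMM), and a change is called at an adjusted p under 0.05 in edgeR's quasi-likelihood test, two-sided, with Benjamini-Hochberg adjustment over all 19259 tested genes. Cd68 measured 4.43, 4.35 and 3.97 CPM in ONC-F, 5.14, 4.87 and 5.28 in ONC-J, 4.04, 5.35 and 4.63 in ONC-S, and 4.2, 6.9 and 3.55 in ONC, against 2.14, 2.37 and 1.9 in WT. All 12 crushed libraries lay above all 3 WT libraries, as they did for 2.21% of all tested genes. Against WT the log2 fold change of Cd68 was 0.98 ± 0.21 in ONC-F (SE, adjusted p = 0.0156), 1.24 ± 0.21 in ONC-J (adjusted p = 0.00121), 1.11 ± 0.21 in ONC-S (adjusted p = 0.000773) and 1.18 ± 0.21 in ONC (adjusted p = 0.00251). In bulk retina, a change in the number of cells and a change in RNA per cell cannot be told apart for any of these genes.

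Spp1 measured 21.6, 20.9 and 18.1 CPM in ONC-F, 22.3, 18.9 and 22 in ONC-J, 24.1, 24.3 and 26.2 in ONC-S, and 20.9, 53.8 and 20.3 in ONC, against 9.61, 9.49 and 9.33 in WT. The WT libraries were almost alike, every crushed library was higher than all of them, and ONC replicate 2 had more than any other library. The log2 fold change against WT was 1.09 ± 0.26 in ONC-F (adjusted p = 0.0311), 1.15 ± 0.26 in ONC-J (adjusted p = 0.0139), 1.39 ± 0.25 in ONC-S (adjusted p = 0.000636) and 1.74 ± 0.25 in ONC (adjusted p = 0.000339). Without ONC replicate 2 the ONC value was 1.12 ± 0.10 (adjusted p = 8.3e-07). The calls in ONC-F were less firm: leaving out 1 library at a time took Cd68 or Spp1 past 0.05 for some libraries of ONC-F and WT, with ONC-F replicates 1 and 2 and WT replicates 1 and 3 each ending both calls and WT replicate 2 ending that of Spp1, at log2 fold changes of 0.91 to 1.1.

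Spp1 was also read beside the other alpha RGC genes, because ganglion cells are the injured population. Kcng4, a potassium channel subunit of alpha RGCs, had a log2 fold change of 0.09 in ONC against WT (adjusted p = 0.857). Nefh, a heavy neurofilament gene abundant in large ganglion cells, measured 34.3, 42.4 and 31.6 CPM in ONC against 79.1, 93.8 and 78.7 CPM in WT (log2 fold change -1.22, adjusted p = 6.94e-06). Spp1 was thus higher in crushed retinas in which 1 of these markers was lower and the other did not pass the test. Which cells made the additional Spp1 RNA was not tested.

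Lgals3 rose in ONC and in ONC-S. It measured 2.77, 2.9 and 2.67 CPM in ONC-F, 1.92, 2.41 and 2.26 in ONC-J, 3.28, 3.24 and 4.44 in ONC-S, and 2.25, 12.7 and 2.81 in ONC, against 1.99, 0.737 and 1 in WT. ONC replicate 2 had 2.87 times as much as the next highest of all libraries, and WT replicate 1, the library with lens RNA, had the highest WT value. The log2 fold change was 1.58 ± 0.51 in ONC-S (adjusted p = 0.0301) and 2.26 ± 0.50 in ONC (adjusted p = 0.0158), with 1.18 ± 0.53 in ONC-F (adjusted p = 0.344) and 0.84 ± 0.54 in ONC-J (adjusted p = 0.466). Without ONC replicate 2 the ONC value was 1.04 ± 0.31 (adjusted p = 0.143), and that in ONC-S stayed at 1.58 with a smaller error (SE 0.26, adjusted p = 0.000271). Leaving out WT replicate 2 or 3 ended the call in ONC (1.97 and 2.15, adjusted p = 0.117 and 0.077) and in ONC-S (1.28 and 1.47, adjusted p = 0.133 and 0.0948), and leaving out ONC-S replicate 3 also ended that in ONC-S (1.41, adjusted p = 0.0988).

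Trem2 and Tyrobp, which form a receptor and adaptor pair, did not pass the test in any comparison. Trem2 measured 1.87, 1.5 and 1.78 CPM in ONC-F, 2.54, 1.32 and 2.53 in ONC-J, 1.96, 2.06 and 2.68 in ONC-S, and 2.15, 3 and 1.89 in ONC, against 1.79, 1.31 and 2 in WT. Each group overlapped the WT range, and the 95% interval of the log2 fold change ran from -0.57 to 0.60 in ONC-F, -0.24 to 0.88 in ONC-J, -0.14 to 0.96 in ONC-S and -0.09 to 1.03 in ONC. Tyrobp measured 1.94, 2.11 and 1.78 CPM in ONC-F, 2.66, 1.55 and 2.58 in ONC-J, 1.49, 2.71 and 1.99 in ONC-S, and 1.35, 4.02 and 2.01 in ONC, against 1.74, 1.31 and 1.53 in WT. Its highest value was again in ONC replicate 2, and its log2 fold change in ONC against WT was 0.68 ± 0.33 (adjusted p = 0.471) and 0.13 ± 0.31 without that library (adjusted p = 0.975). Both genes rested on 27 to 71 counts per library. Depending on the group, the 95% intervals leave room for a rise of Trem2 of up to 0.60 to 1.03 on the log2 scale. For Tyrobp they leave room for up to 1.07 to 1.38.

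**Figure D1:**
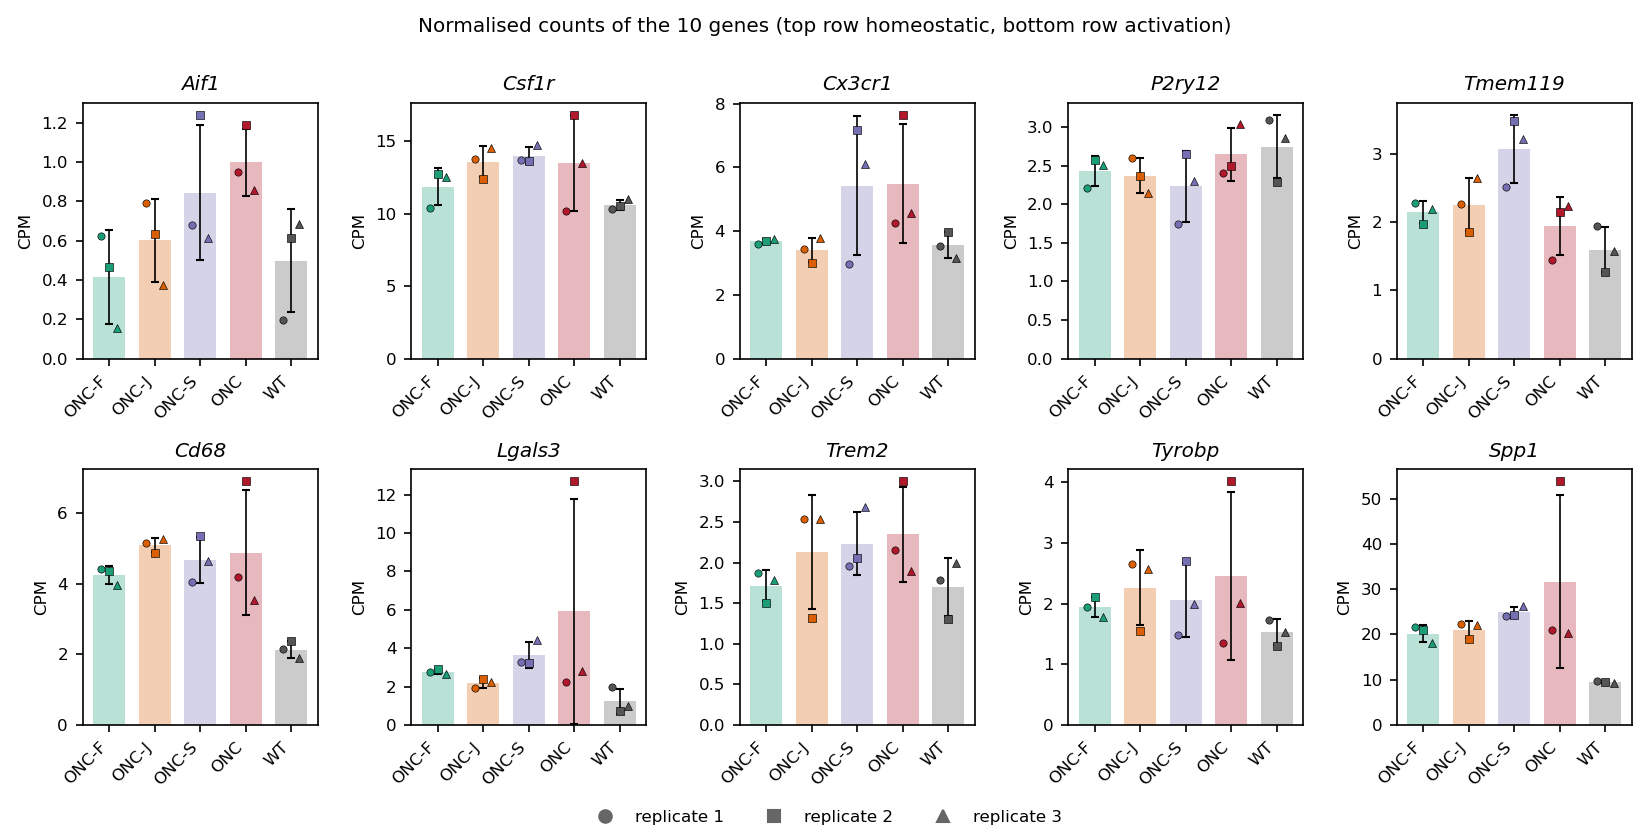
TMM-normalised CPM (linear axes from 0) of the 5 homeostatic genes (top row) and 5 activation genes (bottom row) in ONC-F, ONC-J, ONC-S, ONC and WT. Bars are means of 3 libraries, error bars SD, and the points are libraries with a marker for each replicate number. For Cd68 and Spp1 every crushed library lies above every WT library, P2ry12 stays between 1.74 and 3.09 CPM throughout, and the square of ONC replicate 2 sets the ONC error bars of Lgals3 (12.7 CPM) and Spp1 (53.8 CPM).

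The homeostatic genes moved less, and none was called lower in a crushed group. P2ry12 measured 2.21, 2.57 and 2.51 CPM in ONC-F, 2.6, 2.36 and 2.15 in ONC-J, 1.74, 2.65 and 2.3 in ONC-S, and 2.4, 2.49 and 3.04 in ONC, against 3.09, 2.29 and 2.85 in WT. No crushed library was above the highest WT library, all groups overlapped WT, and ONC replicate 2 did not stand out. The log2 fold change of P2ry12 against WT was -0.16 ± 0.20 in ONC-F, -0.20 ± 0.20 in ONC-J, -0.30 ± 0.20 in ONC-S and -0.05 ± 0.19 in ONC (adjusted p = 0.79, 0.661, 0.288 and 0.969). The 95% intervals ended at -0.57, -0.61, -0.71 and -0.46 on the low side. The gene lies within Med12l on the opposite strand, but the annotated exons share only 9 bases.

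Tmem119 rose in ONC-S. It measured 2.51, 3.47 and 3.22 CPM in ONC-S, against 1.94, 1.27 and 1.58 in WT, with 2.28, 1.97 and 2.19 in ONC-F, 2.26, 1.86 and 2.64 in ONC-J, and 1.45, 2.15 and 2.23 in ONC. The ONC-S libraries were above all WT and all ONC libraries. The log2 fold change was 0.94 ± 0.22 in ONC-S against WT (adjusted p = 0.00476) and 0.66 ± 0.22 in ONC-S against ONC (adjusted p = 0.054). Against WT it was 0.43 ± 0.24 in ONC-F (adjusted p = 0.461), 0.50 ± 0.23 in ONC-J (adjusted p = 0.285) and 0.28 ± 0.24 in ONC (adjusted p = 0.761). As both genes mark microglia, the FPKM ratio of P2ry12 to Tmem119 was also taken in each library: it ran from 0.632 to 0.694 in ONC-S, from 0.882 to 1.19 in ONC-F, from 0.742 to 1.15 in ONC-J and from 1.05 to 1.5 in ONC, against 1.45 to 1.64 in WT. The ratio was below the whole WT range in ONC-S, ONC-F and ONC-J, while the ONC range overlapped that of WT.

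Csf1r measured 13.7, 13.6 and 14.7 CPM in ONC-S, 10.4, 12.7 and 12.5 in ONC-F, 13.8, 12.4 and 14.5 in ONC-J, and 10.2, 16.8 and 13.5 in ONC, against 10.3, 10.5 and 11 in WT. The ONC-S and ONC-J libraries were all above WT, and ONC replicate 1 was below it. The change was called in ONC-S alone (log2 fold change 0.40 ± 0.13, adjusted p = 0.0345), and leaving out any 1 library of ONC-S or WT ended that call at log2 fold changes of 0.37 to 0.43. Whether ONC-S differed from the other crushed groups is given by the direct comparisons, in which Csf1r did not pass. The annotated exons of Csf1r share 873 bases (15.1% of its exon length) with Hmgxb3 on the opposite strand, whose 12112 summed counts exceed those of Csf1r, and the strand setting of the counting is not given in the sources used here. Hmgxb3 itself averaged 47 CPM in ONC-S, against 40.4 CPM in ONC and 37.1 CPM in WT, and was called higher in ONC-S against ONC (log2 fold change 0.22, adjusted p = 0.0379) and against WT (0.34, adjusted p = 0.00142). Its part in the Csf1r value was not tested.

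Cx3cr1 measured 2.98, 7.18 and 6.09 CPM in ONC-S, 4.25, 7.64 and 4.58 in ONC, 3.6, 3.7 and 3.76 in ONC-F, and 3.45, 3 and 3.77 in ONC-J, against 3.54, 3.97 and 3.16 in WT. The values were high in ONC replicate 2 and in ONC-S replicates 2 and 3, and ONC-S replicate 1 was below every WT library. The log2 fold change was 0.59 ± 0.25 in ONC-S against WT (adjusted p = 0.106) and 0.62 ± 0.26 in ONC against WT (adjusted p = 0.35), and without ONC-S replicate 1 the first was 0.89 (adjusted p = 0.00575). Aif1 measured 0.623, 0.468 and 0.157 CPM in ONC-F, 0.791, 0.637 and 0.377 in ONC-J, 0.681, 1.24 and 0.613 in ONC-S, and 0.951, 1.19 and 0.86 in ONC, against 0.199, 0.614 and 0.685 in WT. The ONC libraries lay above the WT libraries, but the log2 fold change of 0.98 ± 0.44 did not pass the test (adjusted p = 0.409), and its 95% interval ran from 0.06 to 1.91.

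The number of these genes called higher was 2 of 10 in ONC-F, 2 in ONC-J, 5 in ONC-S and 3 in ONC, each against WT, and none was called lower. Over all tested genes 2.01% were called in ONC-F against WT (1.03% higher), 3.61% in ONC-J (1.86% higher), 23.3% in ONC-S (11.6% higher) and 2.11% in ONC (0.955% higher). The ONC-S count therefore stands beside a much larger background than the other 3. Split by role, the activation genes called were 2, 2, 3 and 3 of 5 in ONC-F, ONC-J, ONC-S and ONC, and the homeostatic genes called were Tmem119 and Csf1r in ONC-S and none in the other groups. The median log2 fold change of the 5 activation genes was 0.98, 0.84, 1.11 and 1.18 in that order, and that of the 5 homeostatic genes was 0.05, 0.26, 0.59 and 0.34, beside a median over all tested genes within 0.01 of 0 in each comparison. With the 12 crushed libraries set together against WT, in which 7.58% of all genes were called (3.43% higher), Spp1 (1.34 ± 0.22, adjusted p = 0.000466), Cd68 (1.13 ± 0.17, adjusted p = 0.000305) and Lgals3 (1.47 ± 0.44, adjusted p = 0.0459) passed. The pooled Lgals3 value lost its call (adjusted p = 0.0519 to 0.248) when any of 10 libraries was left out, which were all but WT replicate 1, the 3 ONC libraries and ONC-S replicate 1.

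**Figure D2:**
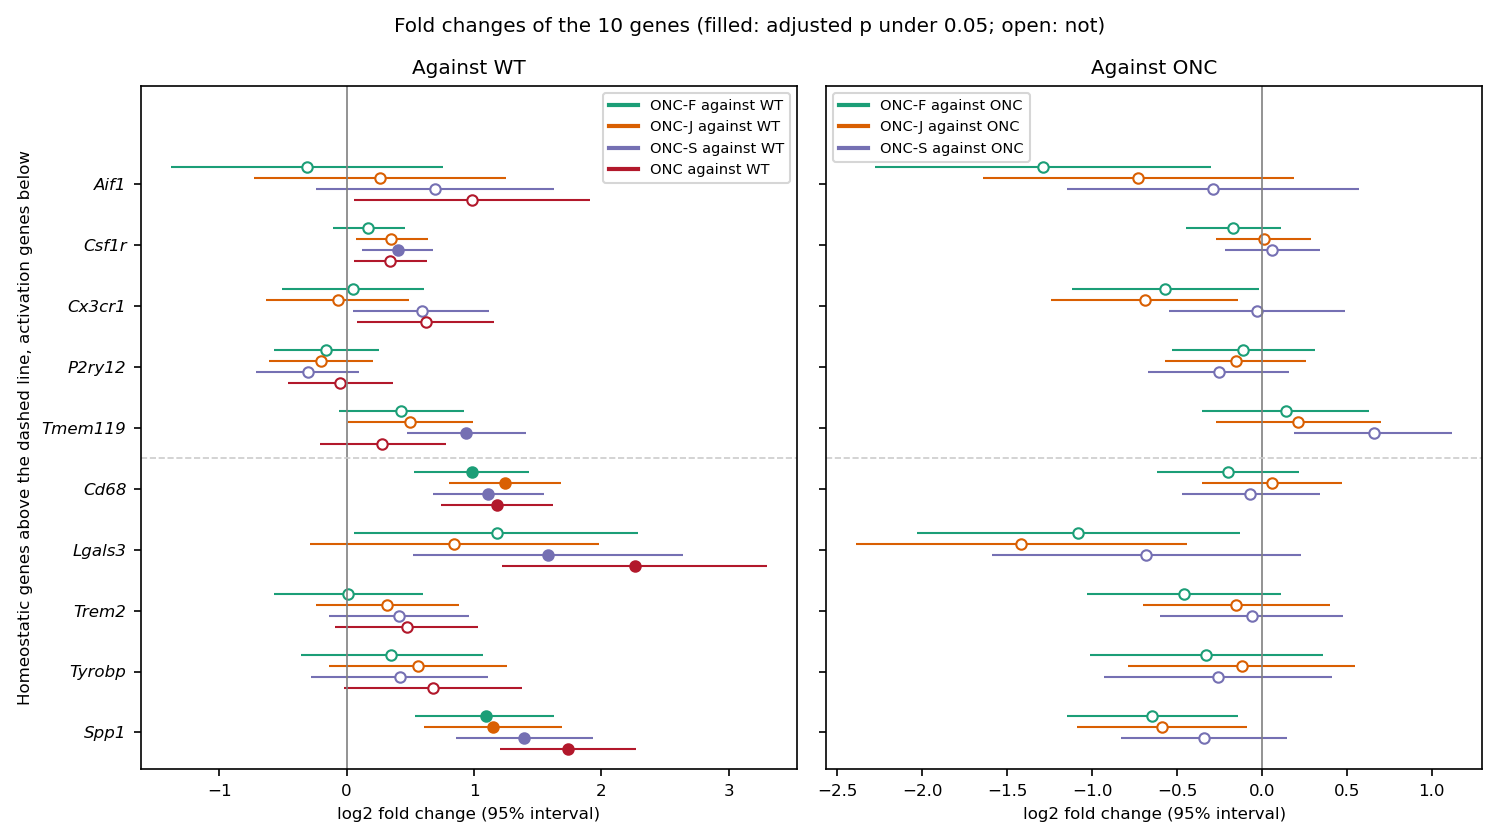
Log2 fold changes of the 10 genes with 95% intervals from edgeR's quasi-likelihood fit, for each crushed group against WT (left) and each needled group against ONC (right). Filled circles passed an adjusted p of 0.05 and open circles did not, with homeostatic genes above the dashed line and activation genes below it. Cd68 and Spp1 are filled in all 4 groups against WT, P2ry12 lies between -0.30 and -0.05, and no circle is filled against ONC.

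To set the activation genes against the homeostatic genes within each library, the mean log2 CPM of each set of 5 was taken (prior count 2), and the difference was expressed relative to the WT mean. The difference was 0.65, 0.62 and 0.74 in the ONC-F libraries, 0.61, 0.48 and 0.80 in ONC-J, 0.64, 0.29 and 0.61 in ONC-S, and 0.47, 1.28 and 0.29 in ONC, against 0.30, -0.19 and -0.12 in WT. The group means were 0.67 ± 0.06 in ONC-F, 0.63 ± 0.16 in ONC-J, 0.52 ± 0.19 in ONC-S and 0.68 ± 0.53 in ONC (SD, n = 3 each), beside an SD of 0.27 in WT. Every ONC-F and ONC-J library was above the WT range, while 1 library of ONC-S and 1 of ONC reached only the level of WT replicate 1. In its parts, the activation mean was above WT by 0.72 ± 0.07 in ONC-F, 0.80 ± 0.20 in ONC-J, 0.96 ± 0.17 in ONC-S and 1.09 ± 0.73 in ONC, and the homeostatic mean by 0.05 ± 0.12, 0.17 ± 0.11, 0.45 ± 0.30 and 0.42 ± 0.24. The groups with the higher activation means, ONC-S and ONC, also had the higher homeostatic means. For the activation means their libraries overlapped those of ONC-F and ONC-J. For the homeostatic means the libraries of ONC (0.17 to 0.65) and ONC-S (0.13 to 0.74) were all above those of ONC-F (-0.09 to 0.12). The ONC-J libraries (0.09 to 0.29) overlapped each of these groups. Of the 5 activation genes, Spp1 and Cd68 were called against WT in every crushed group and Lgals3 in ONC-S and ONC only. Tyrobp and Trem2 were not called, though their log2 fold changes against WT were positive, at 0.35 to 0.68 and 0.01 to 0.47. Without Spp1 and Lgals3 the difference was smaller, at 0.39 in ONC-F and 0.17 in ONC-S. No p is given for these means, since the genes were chosen as markers and are not replicates.

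**Figure D3:**
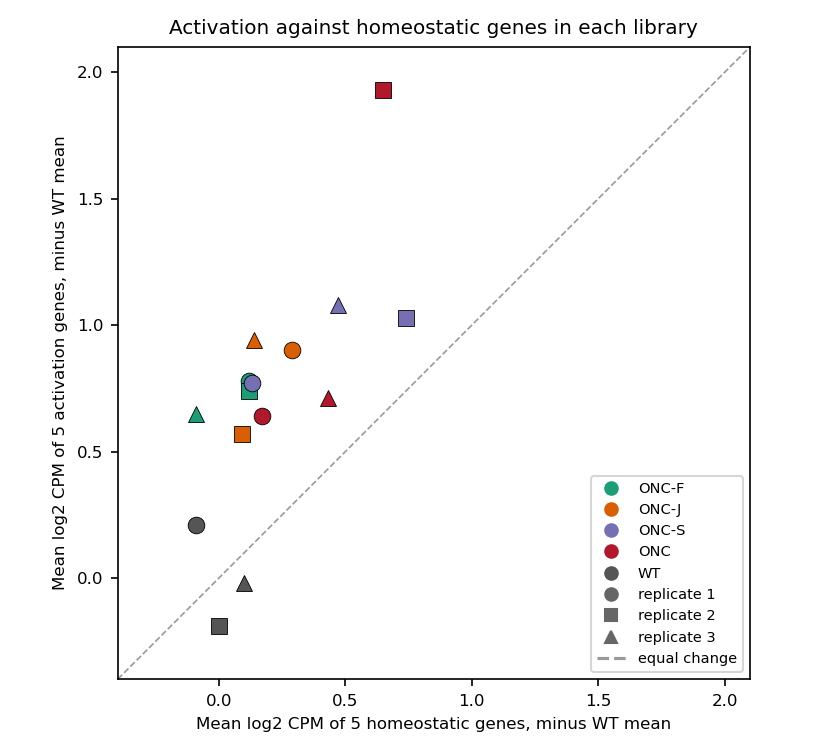
Mean log2 CPM of the 5 activation genes (vertical) against that of the 5 homeostatic genes (horizontal), each minus its WT mean, with 1 point per library, colours for groups and markers for replicate numbers. The dashed line marks equal change in both sets. All 12 crushed libraries lie above the line, and so does WT replicate 1 (activation 0.21, homeostatic -0.09). ONC replicate 2 is highest at 1.93 for the activation genes.

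Ratios to Csf1r, a receptor carried by all of these cells, were also taken per library on the FPKM scale. The ratio of Cd68 to Csf1r averaged 1.40 ± 0.216 in ONC-F, 1.46 ± 0.0589 in ONC-J, 1.30 ± 0.205 in ONC-S and 1.41 ± 0.337 in ONC, against 0.786 ± 0.107 in WT (SD, n = 3 each). The lowest crushed library, at 1.02, was above the highest WT library, at 0.88. The ratio of Trem2 to Csf1r averaged 0.144 ± 0.030 in ONC-F, 0.153 ± 0.042 in ONC-J, 0.157 ± 0.021 in ONC-S and 0.175 ± 0.036 in ONC, against 0.158 ± 0.030 in WT, with all ranges overlapping. The ratio of P2ry12 to Csf1r ran from 0.385 to 0.407 in ONC-F, 0.285 to 0.367 in ONC-J and 0.244 to 0.374 in ONC-S. These ranges lay below that of WT (0.42 to 0.575), while that of ONC (0.285 to 0.454) overlapped it. The ratio of Lgals3 to Csf1r overlapped WT in ONC-J (0.365 to 0.512 against 0.185 to 0.508) and lay above it in ONC-F, ONC-S and ONC. These ratios are descriptions, and they share the limit that Csf1r itself was called higher in ONC-S.

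Per length, Spp1 had the highest level of the 10 genes in every group, at 12.2 ± 1.14 FPKM in ONC-F, 12.7 ± 1.12 in ONC-J, 15 ± 0.677 in ONC-S and 19.1 ± 11.5 in ONC, against 5.70 ± 0.10 in WT (SD, n = 3). In WT the order below it was Tyrobp (2.27 FPKM), Csf1r (2.15), Cd68 (1.69), P2ry12 (1.07), Cx3cr1 (0.783), Tmem119 (0.684), Lgals3 (0.664), Trem2 (0.341) and Aif1 (0.323). Of these WT neighbours, the ranges of Tyrobp and Csf1r overlapped, as did those from Cx3cr1 down to Aif1. In ONC the order was Spp1, Cd68 (3.86 FPKM), Tyrobp (3.66), Lgals3 (3.17), Csf1r (2.74), Cx3cr1 (1.21), P2ry12 (1.03), Tmem119 (0.835), Aif1 (0.648) and Trem2 (0.471), and the ranges of Cd68, Tyrobp, Lgals3 and Csf1r overlapped in turn. Lgals3 was at 1.21, 6.8 and 1.5 FPKM in the 3 ONC libraries, so its place rests on ONC replicate 2.

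Needling was compared with crush alone to see whether treatment at each point moved these genes. None of the 10 was called in ONC-F, ONC-J or ONC-S against ONC by edgeR, where 0.00519%, 0.125% and 14.5% of all genes were called, while 4, 3 and 1 of the 10 had an unadjusted p under 0.05, beside 8.15%, 8.33% and 28.2% of all genes. The genes under 0.05 were Spp1, Lgals3, Cx3cr1 and Aif1 in ONC-F, Spp1, Lgals3 and Cx3cr1 in ONC-J, all lower than in ONC, and Tmem119, higher, in ONC-S. Without the filter on low counts, edgeR called 2, 3 and 2 of the 10, and limma-voom with sample weights called Tmem119 in ONC-S against ONC (0.68, adjusted p = 0.0263). The shares of all genes called under these settings are not given here, so these counts are no result about the 10 genes.

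Much of the distance to ONC came with 1 library. The log2 fold change of Spp1 was -0.65 ± 0.24 in ONC-F against ONC (adjusted p = 0.472) and -0.03 ± 0.10 without ONC replicate 2 (adjusted p = 0.983). In ONC-J against ONC it was -0.59 ± 0.24 (adjusted p = 0.509), and 0.03 ± 0.09 without that library (adjusted p = 0.989). Lgals3 behaved alike, at -1.08 ± 0.46 in ONC-F and -1.42 ± 0.46 in ONC-J with all libraries (adjusted p = 0.547 and 0.368), and at 0.14 ± 0.29 and -0.19 ± 0.29 without ONC replicate 2 (adjusted p = 0.961 and 0.954). For Cx3cr1 the values were -0.57 ± 0.26 and -0.69 ± 0.26 (adjusted p = 0.595 and 0.469), and -0.26 ± 0.26 and -0.38 ± 0.26 without it (adjusted p = 0.903 and 0.817). Aif1 kept a log2 fold change of -1.15 ± 0.53 in ONC-F without that library (adjusted p = 0.72), at 3 to 10 counts per ONC-F library. Cd68 had 95% intervals of -0.62 to 0.22 in ONC-F, -0.35 to 0.47 in ONC-J and -0.47 to 0.34 in ONC-S against ONC.

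The acupoints were also set against the sham point. None of the 10 was called by edgeR in ONC-F or ONC-J against ONC-S, where 14.6% and 12.9% of all genes were called, while 2 of the 10 (Aif1 and Tmem119) and 1 (Cx3cr1) had an unadjusted p under 0.05, beside 28.1% and 26.9% of all genes. Tmem119 was at -0.51 ± 0.22 in ONC-F against ONC-S (adjusted p = 0.131) and -0.44 ± 0.22 in ONC-J against ONC-S (adjusted p = 0.196). Spp1 was lower in every ONC-F and ONC-J library than in every ONC-S library, at -0.30 ± 0.24 and -0.24 ± 0.24 (adjusted p = 0.451 and 0.56). How many of all genes lay apart in this way between single groups is not given here. Such separations are therefore descriptions only. Without ONC replicate 2, which lies in neither group but widens the shared estimate of spread, Spp1 passed in ONC-F against ONC-S (-0.30, adjusted p = 0.0208). Cx3cr1 was at -0.54 ± 0.26 in ONC-F and -0.66 ± 0.26 in ONC-J against ONC-S (adjusted p = 0.18 and 0.103). Without ONC-S replicate 1, Cx3cr1 passed in ONC-F (-0.83, adjusted p = 0.0162) and in ONC-J (-0.95, adjusted p = 0.0079) against ONC-S. That library had the lowest Cx3cr1 value of its group, so these passes rest on leaving it out. The comparisons with ONC share the ONC libraries and those with WT share the WT libraries, so they are not independent of each other.

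ONC replicate 2 differed from the other ONC libraries in activation genes more than in homeostatic genes. Its CPM relative to the mean of ONC replicates 1 and 3 was 5.03 times for Lgals3, 2.62 for Spp1, 2.39 for Tyrobp, 1.78 for Cd68, 1.73 for Cx3cr1, 1.48 for Trem2, 1.41 for Csf1r, 1.31 for Aif1, 1.17 for Tmem119 and 0.916 for P2ry12. Some genes of blood-derived cells were higher there too: Ccr2, the monocyte chemokine receptor, had 19 counts against 0 to 6 in the other 14 libraries, Cxcr2, a neutrophil chemokine receptor, had 15 against 0 to 2, S100a8, a neutrophil alarmin, had 42 against 0 to 9, and Pf4, a platelet and border macrophage chemokine, had 29 against 0 to 4. Lymphocyte and red cell genes were not. Their sums in ONC replicate 2 were 2.09 and 10.5 CPM, against 2.2 and 12.4 in ONC replicate 1 and 1.66 and 6.25 in ONC replicate 3. The cycling gene Mki67 had 58 counts there, against 1 to 31 in the others, but the summed level of the 14 proliferation genes, 130 CPM, was inside the range of 107 to 135 CPM of the other libraries. Gfap, a marker of reactive Müller glia and astrocytes, was at 142 CPM, against 29.7 to 100 in the other crushed libraries and 23.8 to 31 in WT. These genes were picked from the fixed marker lists after their values in that library had been seen, and their part in the result was not tested.

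Over the whole lists of other cell types, many genes were at or near 0, but the sums were not. Of 11 genes of monocyte-derived macrophages, 6 were tested, 0 to 5 were at 0 in a library, and the summed level was 152 to 184 CPM in ONC-F, 172 to 193 in ONC-J, 164 to 199 in ONC-S and 166 to 244 in ONC, against 157 to 161 in WT. Itga4, an integrin subunit, and Fn1, a matrix fibronectin, made up most of it, with means of 119 and 64.4 CPM in ONC against 96.8 and 49.3 CPM in WT, so the sum mostly follows these genes. Fn1 was called higher (log2 fold change 0.45, adjusted p = 0.0114) and Vcan, a matrix proteoglycan, lower (-0.88, adjusted p = 0.0438) in ONC-S against WT. Of 10 neutrophil genes 3 were tested and 2 to 7 were at 0 in a library, with summed levels of 15.8 to 16.6 CPM in ONC-F, 13.7 to 15.9 in ONC-J, 12.4 to 13.5 in ONC-S and 13.2 to 26.7 in ONC, against 19 to 20.6 in WT. Mmp9, a matrix metalloproteinase, made up most of the WT sum, with means of 18 CPM in WT and 13.7 CPM in ONC. The neutrophil sum therefore mostly follows that gene and is no measure of neutrophil number. Of 10 lymphocyte genes 4 were tested and 5 to 6 were at 0, and the T-cell receptor subunit gene Cd3e had 1 count in 1 WT library and 0 in the other 14. Of 9 border macrophage genes 4 were tested, and their summed level was 19.4 to 21.3 CPM in ONC-F, 20.9 to 23.9 in ONC-J, 13.8 to 18.9 in ONC-S and 19.9 to 35.1 in ONC, against 20.4 to 22.6 in WT. Lyve1, a hyaluronan receptor of lymphatic vessels and some border macrophages, fell in ONC-S against WT (-0.61, adjusted p = 0.00122) and against ONC (-0.62, adjusted p = 0.00205). It made up most of the border macrophage sum in WT, with means of 14.6 CPM in WT, 14.7 CPM in ONC and 9.55 CPM in ONC-S.

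Genes of reactive glia were read beside the activation genes. The summed level of 9 gliosis genes was 310 to 334 CPM in ONC-F, 321 to 483 in ONC-J, 255 to 569 in ONC-S and 261 to 829 in ONC, against 230 to 251 in WT. The number of them called higher was 0 in ONC-F, 0 in ONC-J, 4 in ONC-S and 1 in ONC against WT, beside 1.03%, 1.86%, 11.6% and 0.955% of all genes. Gfap had a log2 fold change of 1.22 in ONC-S (adjusted p = 0.0268) and 1.47 in ONC (adjusted p = 0.055) against WT. Its CPM was 29.7, 67.9 and 100 in ONC-S and 34.6, 142 and 59.5 in ONC in replicates 1, 2 and 3, lowest in replicate 1 of each. The part of glia in the level of Lgals3 or Spp1 was not tested.

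The genes around the 10 were read as lists of partners and related markers. Among 26 ligands, co-receptors, signalling partners and regulators, 25 were tested, and 0 were called higher in ONC-F, 2 in ONC-J, 3 in ONC-S and 1 in ONC against WT, with none lower. Of all genes 1.03%, 1.86%, 11.6% and 0.955% were called higher in these comparisons, so the 3 of 25 in ONC-S are near the background and are no result about the list. The ligands themselves did not pass against WT: Csf1, a ligand of the Csf1r receptor, differed on the log2 scale by 0.12 for ONC-F, 0.43 for ONC-J, 0.46 for ONC-S and 0.55 for ONC (adjusted p = 0.859, 0.295, 0.116 and 0.256), and Cx3cl1, the neuronal ligand of Cx3cr1, stayed between -0.10 and -0.04. Il34, the other ligand of the receptor, made by neurons, was at -0.35 in ONC-S against WT (adjusted p = 0.0559) and fell in ONC-S against ONC (-0.40, adjusted p = 0.0478). Runx1, a myeloid transcription factor also made by some neurons, measured 1.25, 0.702 and 0.836 CPM in ONC-F, 1.58, 1.46 and 1.67 in ONC-J, 1.79, 1.59 and 1.84 in ONC-S, and 0.901, 1.87 and 1.55 in ONC, against 0.498, 0.45 and 0.58 in WT. All crushed libraries were above WT, and the change passed in ONC-J (1.62, adjusted p = 0.00374), ONC-S (1.77, adjusted p = 0.000329) and ONC (1.49, adjusted p = 0.0119) but not in ONC-F (0.83, adjusted p = 0.273). Irf8, a regulator of microglial activation, was called in ONC-S (1.11, adjusted p = 0.0245), and so was Adam10, a membrane protease that sheds fractalkine and TREM2 (0.20, adjusted p = 0.0316).

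Of 22 other genes of disease-associated microglia, 18 were tested, and 1 was called higher in ONC-F, 1 in ONC-J, 3 in ONC-S and 2 in ONC against WT, with none lower and medians of 0.13, 0.20, 0.24 and 0.15. The same shares of all genes stand beside these counts, 11.6% in ONC-S, so the 3 calls in ONC-S are given as values only. Gpnmb, a glycoprotein of phagocytes and pigmented cells, measured 17.1, 12.5 and 15.9 CPM in ONC-F, 16.4, 15.1 and 17 in ONC-J, 14.4, 19.1 and 20.4 in ONC-S, and 14.1, 21.8 and 13 in ONC, against 8.17, 8.1 and 9.18 in WT. Every crushed library was higher than every WT library, and the change passed in each group (0.83, 0.93, 1.08 and 0.94, adjusted p = 0.011, 0.00278, 0.000151 and 0.00311). Fth1, the ferritin heavy chain (0.37, adjusted p = 1.98e-05), and Cd63, an endosomal tetraspanin (0.45, adjusted p = 0.0212), were called in ONC-S against WT, and Capg, an actin-capping protein of macrophages, in ONC against WT (1.87, adjusted p = 0.0449) with 21, 100 and 27 counts in the ONC libraries. Apoe, which glia of the retina express at high levels, was at -0.22 in ONC against WT (adjusted p = 0.12).

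Of 18 other homeostatic microglia genes, 16 were tested, and the numbers called higher and lower against WT were 0 and 0 in ONC-F, 2 and 1 in ONC-J, 3 and 2 in ONC-S, and 0 and 0 in ONC. Their median log2 fold changes were 0.20, 0.15, 0.23 and 0.28 in that order. Those of the other disease-associated genes were 0.13, 0.20, 0.24 and 0.15. The gap between activation and homeostatic medians in the 10 genes was thus not seen between these wider lists. In ONC-S, where 11.6% of all genes were called higher and 23.3% in either direction, the higher genes, given as values only, were Siglech, a microglial lectin (0.66, adjusted p = 0.0332), Selplg, a selectin ligand (0.70, adjusted p = 0.0132), and Mertk, a receptor for dying cells also made by pigment epithelium and Müller glia (0.80, adjusted p = 0.00146). Among the lower genes was Crybb1 (-5.55, adjusted p = 0.00765), which is a lens crystallin as well as a microglial gene and had 1770 counts in the WT library with lens RNA, against 7 and 5 in the other WT libraries.

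**Figure D4:**
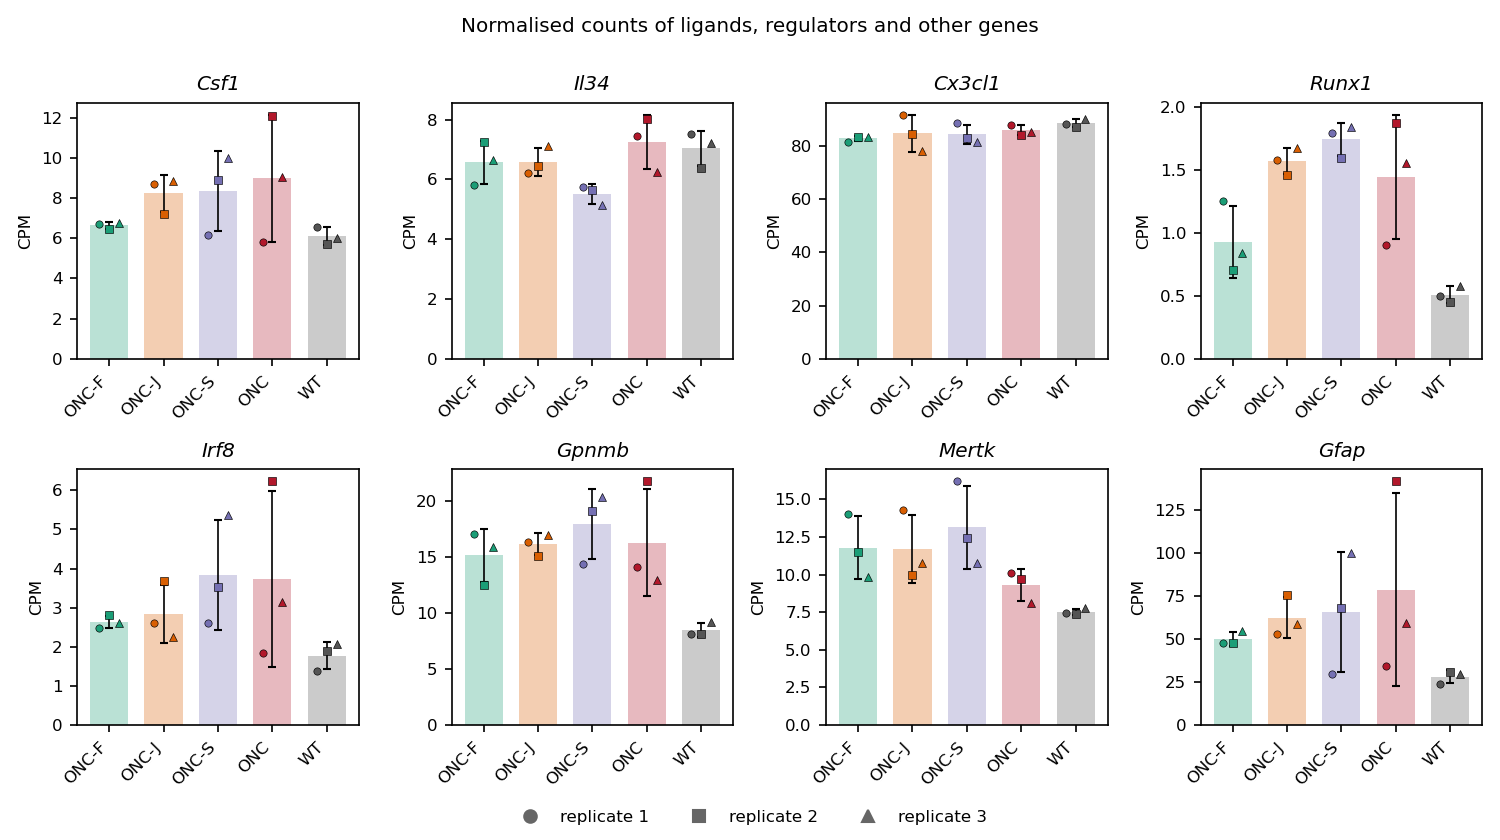
TMM-normalised CPM (linear axes from 0) of the ligands Csf1, Il34 and Cx3cl1, the regulators Runx1 and Irf8, and Gpnmb, Mertk and Gfap in ONC-F, ONC-J, ONC-S, ONC and WT. Bars are means of 3 libraries, error bars SD and points libraries. Every crushed library is above every WT library for Runx1 and Gpnmb, and Cx3cl1 is level across the groups.

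The genes whose library-to-library pattern was most like that of the 10 were found by Pearson's correlation of each tested gene with their mean log2 CPM, on deviations of the 15 libraries from their group means. The first 6 were Commd10, Thoc6, Ncf1, Lyz2, Pdpn and Serpinh1, with r of 0.95, 0.95, 0.93, 0.93, 0.92 and 0.92 over 15 libraries and 0.84, 0.86, 0.88, 0.74, 0.75 and 0.80 over the 14 without ONC replicate 2. Ncf1 encodes a subunit of the phagocyte oxidase and Lyz2 the lysozyme of macrophages and neutrophils. Lyz2 measured 11.1 CPM in ONC replicate 2, against a mean of 1.47 CPM in the other ONC libraries and 1.51 CPM in WT. These 6 were the highest of 19259 genes, they share depth and libraries with the 10, and the values are given as a description with no test.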

How the data were processed

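The authors aligned paired-end reads from poly-A libraries to mm10 with HISAT2 2.0.5, counted reads per gene with featureCounts and deposited raw counts. The deposited FPKM values were computed by the authors from these counts and gene length, and were used here only to compare levels between genes. No further depth correction was applied to them.

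Counts were filtered by filterByExpr (minimum count 10, minimum total 15), which left 19259 genes holding 99.84% to 99.89% of each library, and scaled by TMM (factors 0.966 to 1.03). All 15 libraries were fitted together in edgeR 4.0.16 (10 residual degrees of freedom), as each group has only 3. In a simulation of ONC against WT over 19003 genes, the test called 45 of 100 genes changed by a log2 of 0.5 and 74 of 100 changed by 1, with 3 false calls. The changed genes were drawn from all levels, the spread followed the trend over genes, and no library was made to stand apart. These rates therefore do not carry over to the 10 genes. Libraries within a group differed beyond sampling noise (chi-square per degree of freedom 2.776 to 7.499), so none is a copy.

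Alternatives were DESeq2 1.42.0 on all or 6 libraries, RLE size factors, no filter, edgeR restricted to the 6 libraries compared, weighted limma-voom (limma 3.58.1), a replicate block and leaving out each library. Leaving out ONC replicate 2 was chosen for printing beside results after seeing the data. For the activation minus homeostatic difference they were log2 FPKM with pseudocounts of 1 or 0.1, medians, and leaving out Aif1, Spp1, or Spp1 and Lgals3. All 10 members are named, with every ligand of a member receptor, up to 4 called genes per list with the smallest p in ONC-S or ONC against WT, and the 6 most alike genes. Apoe, Siglech, Mki67, Gfap, Sncg, Nefh, Kcng4, Cryaa and the blood cell genes were named after their values were seen. Some listed genes are not reported here. The members and lists were chosen with earlier results of these data known. Gene positions came from GENCODE and promoter sequences from RefSeq, both GRCm38, and Python 3.11.15, numpy, pandas, scipy and matplotlib were used.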

Additional observations from a re-analysis of the deposited data

How the results depend on the processing

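Over 2166 comparisons of a gene's value with its value under an alternative, 2100 kept their direction and side of the threshold, 36 lost a call and 30 gained one. No called value changed sign, and 52 that were never called did. The cause of these changes was not tested. The shares of all genes called under each alternative are not given here. The counts of calls below therefore describe stability and are no result about the 10 genes. Without the filter on low counts, edgeR called 2 of the 10 genes in ONC-F against ONC, 3 in ONC-J against ONC, 2 in ONC-S against ONC, 2 in ONC-F against ONC-S and 2 in ONC-J against ONC-S, where 0 were called with it. limma-voom called 1 in ONC-S against ONC, and edgeR on the 6 libraries compared called 1 in ONC-F against ONC-S (Spp1) and 1 in ONC-J against ONC-S (Lgals3). Lgals3 in ONC against WT was not called by DESeq2 on 6 libraries, edgeR on 6 libraries or limma-voom (adjusted p = 0.241, 0.114 and 0.0892).

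Leaving out 1 library at a time gave 2 to 4 called genes in ONC against WT, 0 to 3 in ONC-F, 1 to 2 in ONC-J and 3 to 5 in ONC-S, 2 to 4 with all crushed libraries pooled, 0 to 0 in ONC-F and ONC-J against ONC, 0 to 1 in ONC-S against ONC, and 0 to 1 in ONC-F and ONC-J against ONC-S. In ONC-J against WT, Spp1 lost its call without WT replicate 2 or 3 (adjusted p = 0.0592 and 0.0508). The activation minus homeostatic difference relative to WT ran from 0.58 to 0.82 in ONC-F, 0.54 to 0.78 in ONC-J, 0.42 to 0.67 in ONC-S and 0.38 to 0.87 in ONC. It was 0.47 in ONC-F on log2 FPKM with a pseudocount of 1, 0.39 in ONC-F and 0.17 in ONC-S without Spp1 and Lgals3, and 0.89 in ONC-S with medians over the genes.

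The replicate numbers were not treated as pairs. Same-numbered libraries correlated at -0.091 to 0.182 in their deviations from group means (median 0.0265), with 3 of 30 pairs over 0.1. Differently numbered libraries correlated at -0.157 to 0.2 (median -0.0185), with 3 of 60 pairs over 0.1. The paper states that experiments were repeated 3 times, and these correlations cannot settle whether the numbers mark such repeats. With the replicate number as a block the counts of calls were 2 in ONC-F, 2 in ONC-J, 5 in ONC-S and 3 in ONC against WT. Depth limits Aif1, Trem2 and Tyrobp most, with counting errors of 26.7%, 16.7% and 16.9% at their median counts.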
